A study of Rattus norvegicus with 12 samples.

Results

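Glutathione peroxidases and glutathione transferases were followed through 10 genes measured on rat arrays: the peroxidases Gpx1, Gpx2, Gpx3 and Gpx4, the membrane-bound transferases Mgst1, Mgst2 and Mgst3, and the soluble transferases Gsta4, Gstm1 and Gstp1. A probe set belonged to a member when its only symbol in the platform's gene table was that member's, which gave 11 probe sets for the 10 genes, out of 31099 probe sets and 14218 genes in all. Gpx4 alone had more than 1 probe set, and the one with the highest mean over 12 arrays stood for the gene. Gpx2 and Mgst1 were chosen for their levels in these lines, Gpx2 for its high level on ES-like profiles and Mgst1 for its high level on the iPS arrays, so their values are a description and carry no test. The other 8 members were tested.

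The iPS arrays came from lines A1 and A2, induced pluripotent stem cells of the FHH rat strain, grown on a feeder layer of inactivated mouse embryonic fibroblasts and collected 5 days after passage. The title of the series names a transposon system as the means of reprogramming. The ES arrays came from lines DAC2 and DAC8 of embryonic stem cells (strain not labelled), also 5 days after passage. The EF arrays came from FHH embryonic fibroblast cultures REF1 and REF2, prepared from e14.5 embryos and collected 6 days after passage. Per the labels the iPS and ES cells grew in 2i medium but the fibroblasts in their own MEF medium, so medium, passage time and cell type cannot be told apart between the fibroblasts and the other cells. Each of the 6 lines had 2 arrays, and nothing in the labels says that these were separate cultures, so the p-values measure only the spread between arrays. The stated aim was to set the expression profile of the iPS lines against that of ES cells.

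Glutathione is the main small thiol of animal cells. Peroxidases use it to reduce hydrogen peroxide and lipid peroxides, and most of the catalytically efficient ones carry selenocysteine. Transferases join it to reactive electrophiles, either in the cytosol or, for the membrane-bound family that also makes leukotrienes and prostaglandins, in the endoplasmic reticulum and mitochondria. Several genes of both families are targets of the transcription factor NRF2, which binds antioxidant response elements when cells meet oxidants or electrophiles.

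Promoter sequences are given for 3 members, since rat Gstp1 is a known target of NRF2 and since Gpx2 and Mgst1 had the widest ranges between lines. Each runs from 250 bases before to 50 bases after the start of the gene, 5′ to 3′ on the gene's own strand, from RefSeq on the build GRCr8. Capitals mark a match to the core TGACNNNGC of the antioxidant response element on either strand. Whether a marked match is a known or working element was not tested.
Gpx2: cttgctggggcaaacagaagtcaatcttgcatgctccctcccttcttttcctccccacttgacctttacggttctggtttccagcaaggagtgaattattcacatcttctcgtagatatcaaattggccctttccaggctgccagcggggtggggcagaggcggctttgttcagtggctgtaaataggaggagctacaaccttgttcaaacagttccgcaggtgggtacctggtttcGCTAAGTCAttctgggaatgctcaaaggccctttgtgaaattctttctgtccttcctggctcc
Gstp1: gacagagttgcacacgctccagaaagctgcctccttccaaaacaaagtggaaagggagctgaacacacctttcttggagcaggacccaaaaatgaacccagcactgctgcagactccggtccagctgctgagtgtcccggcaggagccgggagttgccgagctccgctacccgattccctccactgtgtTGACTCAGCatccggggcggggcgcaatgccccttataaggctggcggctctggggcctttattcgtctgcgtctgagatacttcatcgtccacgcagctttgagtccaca
Mgst1: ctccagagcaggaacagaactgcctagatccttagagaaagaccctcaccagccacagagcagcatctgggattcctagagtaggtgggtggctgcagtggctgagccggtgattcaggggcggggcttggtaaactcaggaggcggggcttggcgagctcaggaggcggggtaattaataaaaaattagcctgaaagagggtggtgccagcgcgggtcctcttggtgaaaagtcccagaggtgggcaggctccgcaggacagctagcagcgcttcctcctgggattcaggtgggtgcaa
The Gpx2 window lay at chr6:101229984-101230283 on the minus strand, and its 1 match, read on the opposite strand, began at position -13 from the start of the gene as GCTAAGTCA. The Gstp1 window lay at chr1:210769656-210769955 on the minus strand, and its 1 match, TGACTCAGC, began at position -61. The Mgst1 window lay at chr4:172760680-172760979 on the plus strand and held 0 matches. Among all 33469 promoter windows of 300 bases, 12.1% held a match. The windows of Gpx1, Gpx3, Gpx4, Mgst3, Gsta4 and Gstm1 held none, which says only that these letters were not in those windows.

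The profiles of the lines labelled DAC8 and REF2 went against their labels. Those of A1 and A2 went only partly with the iPS label, with most ES-like and epithelial markers under 5 and neural markers high. All labels were kept as given, so iPS below names the label and not a shown state of the cells. On the arrays labelled DAC8 (ES), 9 of 10 fibroblast markers had a line mean of 5 or more, with a median level of 12.52 on the log2 scale, and on those labelled REF1 (EF) it was also 9 of 10. On the arrays labelled REF2 (EF), 0 of 10 fibroblast markers reached 5, whereas all 7 measured ES-like and epithelial markers did, with a median of 10.43, as on those labelled DAC2 (ES). The arrays labelled A1 and A2 (iPS) had 10 of 10 neural markers at 5 or more, with medians of 10.69 and 10.65, and 2 of 10 fibroblast markers each. Neural markers at 5 or more numbered 3 on DAC2, 7 on DAC8, 7 on REF1 and 4 on REF2, with medians of 4.64, 5.9, 5.88 and 4.67. Of the ES-like and epithelial markers, 2 reached 5 on A1 and 3 on A2, while Epcam, which marks epithelial and ES cells, stood at 3.94 and 3.43. Sall4, of the same list, went the other way at 8.22 on A1 and 8.25 on A2. It averaged 10.82 on DAC2, 10.43 on REF2, 3.29 on DAC8 and 3.55 on REF1. Over the 10510 genes that passed the filter given below, the arrays labelled DAC8 and REF1 correlated at 0.988 and those labelled DAC2 and REF2 at 0.974, against 0.614 between the arrays labelled DAC2 and DAC8. All results below are therefore given line by line first. The 3′ minus 5′ level of Actb, a sign of RNA quality, was 0.84 to 0.87 on the iPS arrays, 0.88 on those labelled DAC2, 0.45 to 0.52 on DAC8, 0.42 to 0.48 on REF1 and 0.94 to 1.05 on REF2. That measure moved with the same split of the lines, and its part in the results was not tested. In bulk RNA, fewer cells of a type and less RNA per cell cannot be told apart.

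All levels are log2 signals as deposited, and a difference of 1 is a 2-fold difference in signal. No level under 5 was taken to stand clear of background, and where 1 of the lines compared lay under 5, the true difference may be larger than the one given. Levels of different genes come from different probes and were not set against each other. All 10 members reached 5 in at least 1 labelled cell type and passed the filter, together with 10510 genes in all. Gpx2 and Mgst2 did so through 2 lines only, and Gstm1 through 4.

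**Figure D1:**
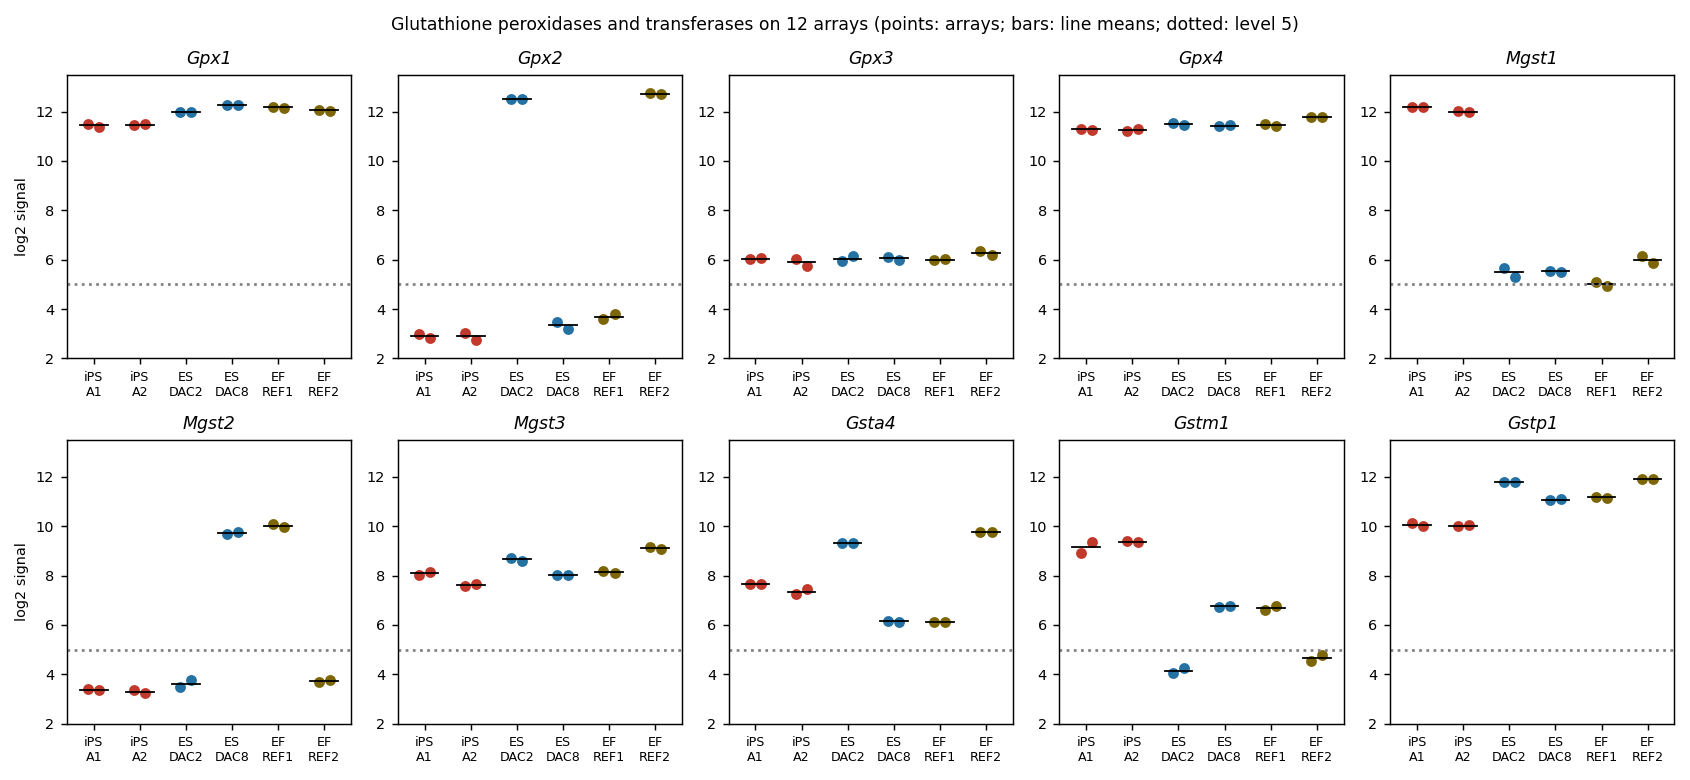
Log2 signal (vertical axis) of the 10 members on each of 12 arrays, grouped by line (horizontal axis; iPS red, ES blue, EF brown). Points are arrays, bars are means of the 2 arrays of a line, and the dotted line is the level 5. Gpx2 was high on the arrays labelled DAC2 and REF2, Mgst1 on A1 and A2, and Mgst2 on DAC8 and REF1, while Gpx1, Gpx3 and Gpx4 moved by less than 1 log2 unit over all lines.

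Gpx2, a selenium-dependent peroxidase of epithelia and especially of the gut, was either very high or near background. It read 2.99 and 2.82 on the A1 arrays, 3.03 and 2.76 on A2, 12.52 and 12.50 on DAC2, 3.48 and 3.21 on DAC8, 3.58 and 3.81 on REF1 and 12.74 and 12.71 on REF2. The arrays labelled DAC2 and REF2 formed a high group that did not overlap the other 8 arrays, all of which lay under 5. The iPS mean minus the DAC2 mean was -9.61, and minus the REF2 mean -9.82. With levels under 5 set to 5, these differences became -7.51 and -7.72. The order of line means ran REF2, DAC2, REF1, DAC8, A1, A2, with the last 4 below 5.

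The genes most like Gpx2 over the 6 line means, out of 1012 genes with a range of at least 4 log2 units, were Rhag (Pearson r = 0.999), Zfp950l1 (0.9989), Apoc1 (0.9988), Ooep (0.9988) and Fcrla (0.9988). Rhag is an ammonia channel of the red cell membrane, Apoc1 an apolipoprotein, and Ooep an oocyte protein needed in early embryos. Each was high on the arrays labelled DAC2 and REF2: Ooep, for example, averaged 3.28 on A1, 3.03 on A2, 11.77 on DAC2, 3.63 on DAC8, 3.72 on REF1 and 11.38 on REF2. With 6 points that fall into a high and a low group, such an r shows little beyond that split.

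Mgst1, the most abundant membrane-bound transferase of liver, which also has peroxidase activity, was high on the iPS arrays. It read 12.19 and 12.18 on A1, 12.01 and 11.98 on A2, 5.65 and 5.31 on DAC2, 5.56 and 5.49 on DAC8, 5.10 and 4.92 on REF1 and 6.14 and 5.87 on REF2. All 4 iPS arrays lay above 11.9, and the other 8 lay between 4.92 and 6.14. The iPS mean exceeded that of DAC2 by 6.61, of DAC8 by 6.56, of REF1 by 7.08 and of REF2 by 6.09, which is a 68-fold to 135-fold higher signal. Unlike Gpx2, Mgst1 had similar levels on the arrays labelled DAC2 and DAC8, which differed by -0.05 (SE 0.12).

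The genes most like Mgst1 were Tubb3 (0.9989), Gad1 (0.9985), Cacna2d3 (0.9985), Stra6l (0.998) and Prmt8 (0.9978). As for Gpx2, such an r over a high and a low group of lines shows little beyond that split. Tubb3 is a neuronal tubulin, Gad1 makes the transmitter GABA, Cacna2d3 is a calcium channel subunit and Prmt8 an arginine methyltransferase of brain. Tubb3 averaged 11.92 on A1, 11.88 on A2, 8.20 on DAC2, 7.97 on DAC8, 7.69 on REF1 and 8.30 on REF2. Tubb3 was also on the list of neural markers, of which 10 of 10 reached 5 on both iPS lines, 3 on DAC2, 7 on DAC8, 7 on REF1 and 4 on REF2. Ncam1, of that list, was higher on DAC8 (7.45) and REF1 (7.32) than on A1 (5.96) and A2 (5.8). The summed level of that list was 14.47 to 14.49 on the log2 scale over the iPS arrays, 8.96 to 8.97 on DAC2, 10.03 to 10.08 on DAC8, 9.86 to 9.94 on REF1 and 9.25 to 9.29 on REF2. Of 8 glia and radial glia markers, 3 reached 5 on A1, 4 on A2 and 1 on each other line. The summed level of that list was 8.91 to 9.20 over the iPS arrays, 7.0 to 7.09 on DAC2, 7.06 to 7.09 on DAC8, 7.27 to 7.41 on REF1 and 6.96 to 7.01 on REF2. The summed endothelial list was also highest on the iPS arrays, at 9.06 to 9.33 against 6.53 to 8.73 on the other lines. So was the endoderm and liver list, at 9.75 to 9.88 against 7.63 to 9.63. By count, 2 of 5 measured endothelial markers reached 5 on A1 and on A2, but 3 on DAC2 and on REF2. The part of neural, glial or any other cells in the Mgst1 level was not tested.

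**Figure D2:**
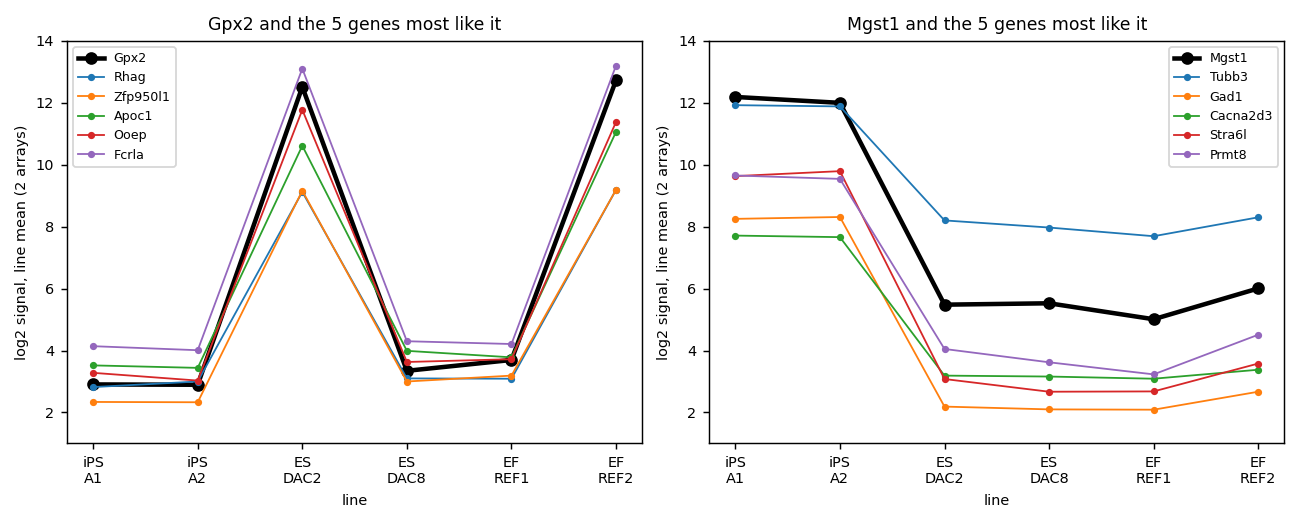
Line means of log2 signal (vertical axis, 2 arrays per line) over the 6 lines (horizontal axis) for Gpx2 and the 5 genes most like it (left) and for Mgst1 and the 5 genes most like it (right). The left set was high on the arrays labelled DAC2 and REF2, and the right set on A1 and A2, where all 4 Mgst1 arrays lay above 11.9.

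Among the 3 peroxidases with tests, Gpx1 and Gpx4 were high in all lines and slightly lower in iPS cells. Gpx1, the main cytosolic selenium-dependent peroxidase, read 11.51 and 11.37 on A1, 11.45 and 11.48 on A2, 11.98 and 12 on DAC2, 12.26 and 12.25 on DAC8, 12.20 and 12.16 on REF1 and 12.07 and 12.04 on REF2. All 4 iPS arrays lay below the other 8, and Gpx1 was lower in iPS than in DAC2 by a difference of -0.54 ± 0.05 (SE, limma adjusted p = 5.5e-06), DAC8 by -0.80 ± 0.05 (2.39e-07), REF1 by -0.73 ± 0.05 (4.86e-07) and REF2 by -0.60 ± 0.05 (2.35e-06). In the order DAC8, REF1, REF2, DAC2, A2, A1, the 1 pair of neighbours that differed was DAC2 and A2.

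Gpx4 reduces lipid peroxides within membranes and is the peroxidase that holds off ferroptosis, a lipid peroxide driven form of cell death. It read 11.30 and 11.26 on A1, 11.23 and 11.29 on A2, 11.52 and 11.46 on DAC2, 11.40 and 11.46 on DAC8, 11.48 and 11.40 on REF1 and 11.79 and 11.76 on REF2. The iPS arrays lay lowest and those labelled REF2 highest, without overlap, but the whole range of line means was 0.52. Differences in iPS were -0.22 ± 0.05 (SE, limma adjusted p = 0.00213) against DAC2, -0.16 ± 0.05 (0.0125) against DAC8, -0.17 ± 0.05 (0.00867) against REF1 and -0.51 ± 0.05 (5.83e-06) against REF2. The calls against DAC8 and REF1 were lost without DAC8 replicate 2 and REF1 replicate 1 (-0.13 each), after quantile normalization (-0.05 and -0.10), and with the mean of both Gpx4 probe sets (-0.03 and -0.05). The second, dimmer probe set averaged 5.38 on A1 and on A2, 5.68 on DAC2, 5.29 on DAC8, 5.31 on REF1 and 5.76 on REF2, so it put the iPS lines below DAC2 and REF2 but not below DAC8 and REF1.

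Gpx3, the secreted peroxidase of plasma, hardly moved. It read 6.02 and 6.05 on A1, 6.03 and 5.74 on A2, 5.94 and 6.13 on DAC2, 6.10 and 6.00 on DAC8, 5.97 and 6.02 on REF1 and 6.35 and 6.19 on REF2, and the arrays of all lines but REF2 overlapped. The iPS difference passed the test only against REF2 (-0.31 ± 0.09, SE, limma adjusted p = 0.00998), and without REF2 replicate 1 it was -0.23 and no longer passed. Against DAC2 it was -0.07 (95% interval -0.28 to 0.13), against DAC8 -0.09 (-0.30 to 0.11) and against REF1 -0.03 (-0.24 to 0.17).

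Mgst2, a membrane-bound transferase that can make leukotriene C4, followed the fibroblast-like profiles. It read 3.41 and 3.35 on A1, 3.35 and 3.23 on A2, 3.48 and 3.76 on DAC2, 9.69 and 9.77 on DAC8, 10.08 and 9.96 on REF1 and 3.70 and 3.77 on REF2. The arrays labelled DAC8 and REF1 were far above the other 8, all of which lay below 5. Since Mgst2 passed the filter on dim genes only through those 2 lines, it had to differ there, and these differences are given with no test. The iPS mean minus the DAC8 mean was -6.40 and minus the REF1 mean -6.69, which became -4.73 and -5.02 with levels under 5 set to 5. The arrays labelled DAC2 and DAC8 differed by -6.11 and those labelled REF1 and REF2 by 6.29. Differences of iPS from DAC2 (-0.28) and REF2 (-0.40) passed the test but lay wholly below 5, and the first was lost, at -0.14, without DAC2 replicate 2. The fibroblast marker list moved with Mgst2: its summed level was 9.24 to 9.31 on A1, 9.20 to 9.31 on A2, 7.31 to 7.41 on DAC2, 15.82 to 15.85 on DAC8, 16.02 to 16.05 on REF1 and 7.15 to 7.23 on REF2. The part of fibroblasts in the Mgst2 level was not tested.

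Mgst3, the third membrane-bound transferase, read 8.03 and 8.16 on A1, 7.59 and 7.66 on A2, 8.72 and 8.61 on DAC2, 8.04 and 8.04 on DAC8, 8.18 and 8.11 on REF1 and 9.15 and 9.08 on REF2. The arrays labelled DAC2 and REF2 were highest and A2 lowest, while A1, DAC8 and REF1 overlapped. The iPS mean differed by -0.80 ± 0.06 from DAC2 (SE, limma adjusted p = 8.31e-07), -0.18 ± 0.06 from DAC8 (0.0168), -0.28 ± 0.06 from REF1 (0.00136) and -1.25 ± 0.06 from REF2 (3.06e-08). The call against DAC8 was lost, at the same difference of -0.18, without either DAC8 array. A1 exceeded A2 by 0.47 (SE 0.07, limma adjusted p = 0.0103), a call lost without A1 replicate 2 (0.41) or A2 replicate 1 (0.44).

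The 3 soluble transferases each split the lines in another way. Gsta4, an alpha-class enzyme that conjugates lipid peroxidation aldehydes such as hydroxynonenal, read 7.66 and 7.66 on A1, 7.27 and 7.44 on A2, 9.30 and 9.30 on DAC2, 6.18 and 6.12 on DAC8, 6.13 and 6.12 on REF1 and 9.77 and 9.78 on REF2. The iPS arrays held a middle place, below those labelled DAC2 and REF2 and above those labelled DAC8 and REF1, with no overlap. The difference was -1.80 ± 0.05 against DAC2 (SE, limma adjusted p = 1.47e-09), 1.35 ± 0.05 against DAC8 (9.52e-09), 1.38 ± 0.05 against REF1 (8.07e-09) and -2.27 ± 0.05 against REF2 (3.36e-10). Every pair of neighbours in the order REF2, DAC2, A1, A2, DAC8, REF1 differed except DAC8 and REF1 (0.02, SE 0.06), though A1 and A2 (0.31, limma adjusted p = 0.0449) did so narrowly, a call lost on leaving out any of 11 of the 12 arrays (0.22 to 0.31).

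Gstm1, a mu-class transferase, had the largest rise in iPS cells of the 8 tested members, against each of the other 4 lines. It read 8.93 and 9.35 on A1, 9.40 and 9.36 on A2, 4.04 and 4.24 on DAC2, 6.74 and 6.76 on DAC8, 6.61 and 6.76 on REF1 and 4.53 and 4.79 on REF2. The lines formed 3 steps that did not overlap, with the iPS lines on top, DAC8 and REF1 between, and DAC2 and REF2 under 5. The iPS mean was higher than DAC2 by 5.12 ± 0.12 (SE, limma adjusted p = 3.24e-10), DAC8 by 2.51 ± 0.12 (3.68e-08), REF1 by 2.58 ± 0.12 (2.99e-08) and REF2 by 4.60 ± 0.12 (6.47e-10). With levels under 5 set to 5, the differences from DAC2 and from REF2 were both 4.26. Mu-class genes are close copies of one another, and whether the Gstm1 probes also read a relative was not tested.

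Gstp1, the pi-class transferase known in the rat as the placental form and as a marker of altered liver foci, was high everywhere and lowest in iPS cells. It read 10.12 and 10.00 on A1, 10.02 and 10.03 on A2, 11.79 and 11.78 on DAC2, 11.05 and 11.09 on DAC8, 11.19 and 11.15 on REF1 and 11.92 and 11.93 on REF2. All 4 iPS arrays lay below the other 8, and those labelled DAC2 and REF2 lay above those labelled DAC8 and REF1. Gstp1 differed in iPS by -1.74 ± 0.05 from DAC2 (SE, limma adjusted p = 7.73e-10), -1.03 ± 0.05 from DAC8 (2.57e-08), -1.13 ± 0.05 from REF1 (1.3e-08) and -1.88 ± 0.05 from REF2 (4.74e-10). The neighbours REF2 and DAC2 (0.14, adjusted p = 0.0547) and REF1 and DAC8 (0.10, 0.235) did not differ beyond their spread. Its line means were highest on the arrays labelled REF2 and DAC2, in that order, as were those of Gpx2, Gpx4, Mgst3 and Gsta4. Of these 5 genes, the printed promoters of Gstp1 and Gpx2 held a match to the antioxidant response core. The windows of Gpx4, Mgst3 and Gsta4 held none. Among all promoter windows 12.1% held a match, and Gpx2 was chosen for its level. Whether the matches bear on the levels was not tested.

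**Figure D3:**
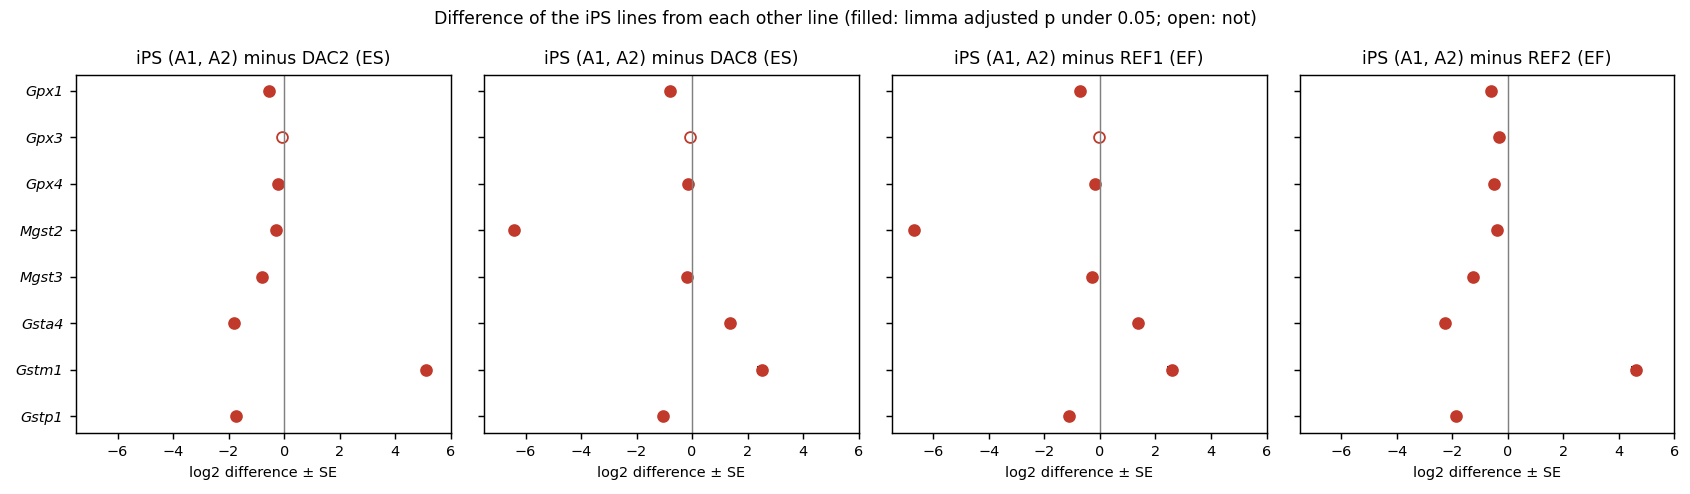
Difference in log2 signal (horizontal axis), iPS (mean of A1 and A2) minus each of the other 4 lines, for the 8 tested members. Points are estimates with bars of 1 SE (mostly smaller than the point), filled where the limma adjusted p was under 0.05 (for Mgst2 against DAC8 and REF1 the filter fixed this). Gstm1 was higher in iPS in all 4 comparisons and Gstp1 and Gpx1 lower in all 4, while the sign of Gsta4 turned between DAC2 and REF2 on one side and DAC8 and REF1 on the other.

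Counted together, 7 of the 8 tested members differed between iPS and DAC2 (1 higher, 6 lower), where 82.2% of all 10510 genes were called, 39.2% higher and 42.9% lower. The count was 7 of 8 against DAC8 (2 higher, 5 lower; 82.4% of all genes, 48.2% higher and 34.2% lower), 7 of 8 against REF1 (2 higher, 5 lower; 82.8%, with 48.6% and 34.2%) and 8 of 8 against REF2 (1 higher, 7 lower; 82.1%, with 40.7% and 41.4%). The totals lie near those of all genes and are no result about the members. In direction, fewer members were higher and more were lower than among all genes in each comparison, but the members were chosen with such values known and no test of that split was made. Mgst2 is in all 4 counts, and the filter on dim genes fixed its calls against DAC8 and REF1. It did so too between DAC2 and DAC8, between REF1 and REF2 and between DAC2 and REF1. Differences of at least 1 log2 unit were called for 3 of 8 members against DAC2 (29.9% of all genes), 4 of 8 against DAC8 (31.7%), 4 of 8 against REF1 (32.6%) and 4 of 8 against REF2 (30.7%). All 4 comparisons share the iPS arrays and are not independent of each other. The median difference of the 8 members was -0.41 against DAC2, -0.17 against DAC8, -0.22 against REF1 and -0.55 against REF2, beside -0.06, 0.14, 0.15 and -0.02 over all genes.

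The 2 lines labelled ES differed from each other, as did the 2 labelled EF, more than each did from the line of the other label with a like profile. Between DAC2 and DAC8, both labelled ES, 6 of 8 members were called (84.4% of all genes), and 3 by at least 1 log2 unit (39.6%): Gsta4 at 3.15, Gstm1 at -2.60 and Mgst2 at -6.11. Between REF1 and REF2, both labelled EF, 7 of 8 were called (83.7%), and 3 by at least 1 log2 unit (39.5%): Mgst2 at 6.29, Gstm1 at 2.02 and Gsta4 at -3.65. Across the labels, DAC2 and REF2 differed in 4 of 8 members (47.5% of all genes), all lower in DAC2 (25.7% of all genes) and none by 1 log2 unit (3.90%), the largest being Gstm1 at -0.52 (limma adjusted p = 0.0139) with both lines under 5, a call lost without DAC2 replicate 1 (-0.42) or REF2 replicate 2 (-0.39). Between DAC8 and REF1, 0 of 8 were called by limma (20.3% of all genes), 1 had an unadjusted p under 0.05, and 1 was called after quantile normalization. A difference of at least 1 log2 unit was called there for 1.24% of all genes. Between DAC2 and REF1, whose profiles went with their labels, 6 of 8 were called (84.5% of all genes), 3 of them by at least 1 log2 unit (40.3%). Mgst2, whose call the filter fixed, is in both of these counts. Between DAC8 and REF1 the largest difference was Mgst2 at -0.29 (95% interval -0.50 to -0.08, adjusted p = 0.0581). Between the iPS lines A1 and A2, 2 of 8 were called (1.94% of all genes), Mgst3 and Gsta4, both higher in A1.

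Averaged by labelled cell type, with the line as a random block, few members passed. Gstm1 was higher in iPS than in ES by 3.81 ± 0.96 (SE, limma adjusted p = 0.0428) and Gstp1 differed by -1.38 ± 0.34 (0.0384), so 2 of 8 were called beside 4.84% of all genes. Both calls were lost on leaving out any of 10 of the 12 arrays, with differences of 3.75 to 3.85 and -1.40 to -1.38. In iPS against EF, Gstp1 differed by -1.51 ± 0.34 (limma adjusted p = 0.0241), 1 of 8 beside 5.35% of all genes, and Gstm1 by 3.59 ± 0.96 (0.0538). In ES against EF 0 of 8 and 0 of all genes were called by limma, with 0 members and 21 genes at an unadjusted p under 0.05. When line means were tested instead, 0 members were called in iPS against ES and in iPS against EF. Without the arrays labelled DAC8 and REF2, 7 members were called in iPS against ES, 7 in iPS against EF and 6 in ES against EF. That fit took the lines as its factor with no random block, so its error was the spread between arrays. Its counts therefore differ from those above through the error used as well as through the arrays left out.

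Of 28 other peroxidase and transferase genes listed, 15 passed the filter. In iPS 8 were higher and 5 lower than in DAC2 (all genes 39.2% and 42.9%), and 8 and 5 against REF2 (40.7% and 41.4%), so the 13 called of 15 lie near the 82.2% and 82.1% of all genes and are no result about the list. Here and in the lists below, genes that passed only through some labelled cell types stay in the counts, and the filter favoured their direction. Gstm5, another mu-class gene, averaged 9.48 on A1, 9.50 on A2, 2.61 on DAC2, 8.32 on DAC8, 8.63 on REF1 and 3.10 on REF2. It was higher in iPS by 6.88 (limma adjusted p = 7e-12) against DAC2 and 6.39 (8.78e-12) against REF2, both with a side under 5. Gstt3, a theta-class gene, was higher in iPS by 4.15 against DAC2, 3.34 against DAC8, 2.74 against REF1 and 4.47 against REF2, with the 4 other lines under 5. Gstt3 passed the filter on dim genes only through the iPS arrays, so it had to be higher there. Gsto1, an omega-class enzyme, was higher in iPS by 3.60 against DAC2, 1.50 against DAC8, 1.41 against REF1 and 3.98 against REF2. Alox5ap, which feeds arachidonate into leukotriene synthesis, was lower in iPS by a difference of -3.30 against DAC2 and -3.40 against REF2, with the iPS lines under 5. It passed the filter only through the lines labelled DAC2 and REF2, so it had to be lower in iPS.

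In iPS 6 of the 15 were higher and 4 lower than in DAC8 (all genes 48.2% and 34.2%), and 7 and 5 against REF1 (48.6% and 34.2%). Gpx7 and Gpx8, peroxidases of the endoplasmic reticulum that lack selenocysteine, were lower in iPS by differences of -2.73 and -3.13 against DAC8 and -3.00 and -2.89 against REF1. Gpx8 averaged 9.22 on A1, 9.15 on A2, 9.40 on DAC2, 12.31 on DAC8, 12.07 on REF1 and 9.09 on REF2, so both were highest where fibroblast markers were high. Gstm2 was lower in iPS by -3.05 against DAC8 and -3.26 against REF1, also with the iPS lines under 5. It passed the filter only through the ES and EF arrays, which favoured that direction. Gstk1, the mitochondrial and peroxisomal kappa-class enzyme, was higher in iPS by 1.90 against DAC8 and 1.63 against REF1.

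Genes of the list of NRF2 and its targets were mostly lower in iPS cells than on the ES-like profiles. Beside targets, the list held Nfe2l2 and Keap1, an inhibitor of NRF2, so the counts are no measure of NRF2 activity. Keap1 averaged 6.74 on A1, 6.73 on A2, 7.43 on DAC2 and 7.13 on REF2. Of 15 tested genes of 19 listed, 1 was higher and 13 lower in iPS against DAC2, where 39.2% of all genes were higher and 42.9% lower. The counts were 1 and 13 against REF2 too (all genes 40.7% and 41.4%), with medians of -0.98 and -1.09 beside -0.06 and -0.02 over all genes. Nqo1, a quinone reductase, averaged 6.63 on A1, 6.66 on A2, 10.76 on DAC2, 8.84 on DAC8, 8.45 on REF1 and 10.39 on REF2, and differed in iPS by -4.11 (limma adjusted p = 1.22e-10) against DAC2. Hmox1, the inducible heme oxygenase, differed by -3.96 (3.95e-11) against DAC2 and -4.55 (2.07e-11) against REF2. The exception in both was Slc7a11, the cystine importer that supplies glutathione synthesis, which was higher in iPS by 1.87 against DAC2 and 2.25 against REF2, where the lower lines were under 5. Slc7a11 passed the filter on dim genes only through the iPS arrays, so the filter favoured that direction.

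Against the lines labelled DAC8 and REF1 the list was mixed, with 5 higher and 7 lower against DAC8 (all genes 48.2% and 34.2%), and 7 and 7 against REF1 (48.6% and 34.2%). Ephx1, an epoxide hydrolase, differed in iPS by -4.19 and -2.97, and Nfe2l2, the gene of NRF2 itself, by -2.23 and -1.74. Between the arrays labelled DAC8 and REF1, where 11.2% of all genes were higher in DAC8, 7 of the 15 were higher and 0 lower. Hmox1 was higher in DAC8 by 2.03 (limma adjusted p = 1.73e-06), Ephx1 by 1.21 (4.31e-05) and Gclc, the catalytic subunit of the first enzyme of glutathione synthesis, by 0.83 (6.5e-05). No tested peroxidase or transferase among the 8 members was called in that comparison.

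Glutathione synthesis and recycling was represented by 22 tested genes of 25 listed, of which Gclc, Gclm, Slc7a11 and Abcc1 were also on the NRF2 list. Against DAC2, 9 were higher and 12 lower in iPS (all genes 39.2% and 42.9%), and against REF2 10 were higher and 11 lower (40.7% and 41.4%). Gclm, the regulatory subunit of the first enzyme of the pathway, averaged 7.45 on A1, 7.45 on A2, 9.43 on DAC2, 7.0 on DAC8, 6.40 on REF1 and 9.66 on REF2. It differed in iPS by -1.98 (limma adjusted p = 3.63e-08) against DAC2 and -2.21 (1.55e-08) against REF2, but was higher by 1.05 (3.16e-06) against REF1. Oplah, which recycles oxoproline, was lower in iPS by a difference of -2.06 against DAC2 and -2.69 against REF2, with the iPS lines under 5. Oplah passed the filter only through the ES and EF arrays, which favoured that direction. Against DAC8, 11 were higher and 5 lower (all genes 48.2% and 34.2%), and against REF1, 13 were higher and 4 lower (48.6% and 34.2%). Gss, which completes glutathione, was lower in iPS by -1.30 and -1.45. Glrx, a glutaredoxin, stood out within the ES-like profiles: it averaged 4.48 on DAC2 and 9.08 on REF2, a difference of -4.59 (limma adjusted p = 7.29e-08).

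**Figure D4:**
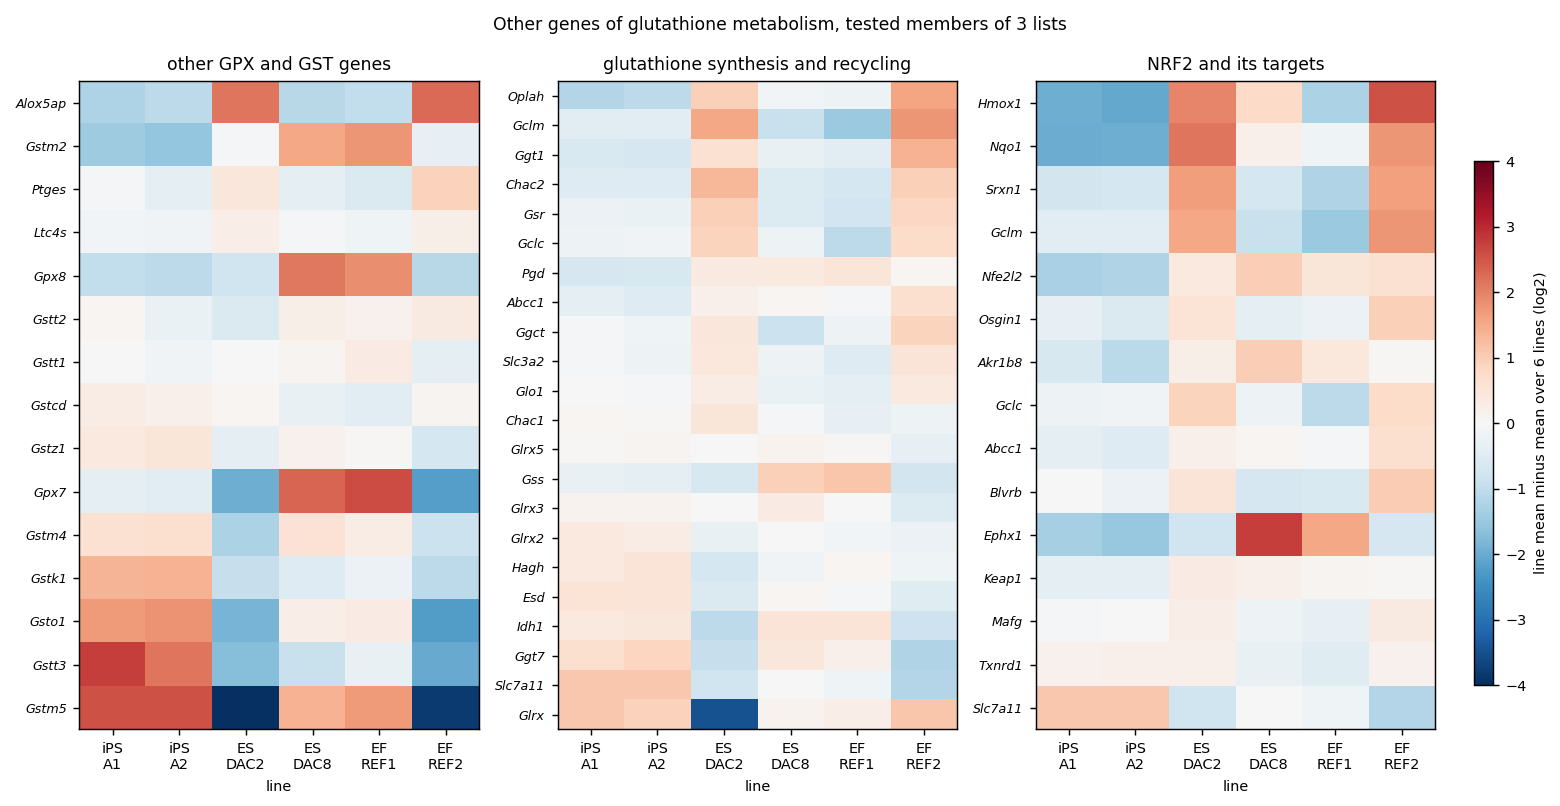
Line mean minus the mean of the 6 lines (log2, colour scale) for tested genes of 3 lists (rows) in each line (columns, iPS to the left, then ES and EF). The columns labelled DAC2 and REF2 resembled each other, as did those labelled DAC8 and REF1, and Nqo1, Hmox1, Srxn1 and Gclm were lower in both iPS columns than in those labelled DAC2 and REF2.

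The peroxiredoxin, thioredoxin, superoxide dismutase and catalase list had 15 tested genes of 16, of which Srxn1 and Txnrd1 were also on the NRF2 list. Against DAC2, 7 were higher and 5 lower in iPS, against DAC8 6 and 2, against REF1 11 and 2, and against REF2 7 and 6. Over all genes the shares higher and lower were 39.2% and 42.9%, 48.2% and 34.2%, 48.6% and 34.2%, and 40.7% and 41.4% in that order, and they also apply to the lists that follow. Prdx3, the mitochondrial peroxiredoxin, was higher in iPS by 1.73 against DAC2, 1.22 against DAC8, 1.62 against REF1 and 1.26 against REF2. Sod3, the secreted superoxide dismutase, was lower by -3.91 against DAC8 and -4.32 against REF1, with the iPS lines under 5. It passed the filter only through the lines labelled DAC8 and REF1, so it had to be lower in iPS. Srxn1, which repairs overoxidised peroxiredoxins, was lower by -2.40 against DAC2 and -2.36 against REF2.

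Selenoprotein genes and the machinery that inserts selenocysteine gave 19 tested genes of 19. In iPS, 7 were higher and 6 lower against DAC2, 9 and 9 against DAC8, 10 and 9 against REF1, and 6 and 8 against REF2. Scly, which frees selenium from selenocysteine, was lower in iPS by -3.81 (limma adjusted p = 1.18e-10) against DAC2 and -3.57 (1.84e-10) against REF2. Selenop, the selenium carrier of plasma, separated REF2 from all other lines, averaging 5.34 on A1, 5.68 on A2, 5.74 on DAC2, 7.44 on DAC8, 7.39 on REF1 and 9.60 on REF2. Selenom was lower in iPS by -5.15 against DAC8 and -5.62 against REF1. Among 10 tested genes of 15 listed for lipid peroxidation and ferroptosis, 5 were higher and 3 lower against DAC2, 3 and 4 against DAC8, 2 and 5 against REF1, and 6 and 4 against REF2. Aifm2, a ferroptosis suppressor that works beside Gpx4, differed in iPS by -1.75 against DAC2, -1.53 against DAC8, -1.46 against REF1 and -2.54 against REF2. Aifm2 passed the filter only through the ES and EF arrays, which favoured that direction.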

How the data were processed

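RNA of 6 rat cell lines or cultures was measured on 12 single-colour Affymetrix arrays, 2 for each. The authors deposited log2 signals; the tools named, per the submitters' processing notes, are RMA and Partek 6.2. RMA subtracts background, equalises the arrays and condenses each set's probes into 1 value, so differences of dim and of very bright genes come out too small. Joint normalization of all arrays is not stated. Values lay between 1.45 and 14.12, with array medians of 5.28 to 5.41. Precision is limited by the 2 arrays per line.

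Of 31099 probe sets, 20832 had 1 gene symbol in the platform's table, 436 had several and 9831 had none listed. The probe set with the highest mean stood for each of 14218 genes. Genes with a mean of at least 5 in 1 or more labelled cell types were tested, 10510 in all. A fit in limma 3.58.1 under R 4.3.3 took the 6 lines as its factor over all 12 arrays (6 residual degrees of freedom), and a second fit compared labelled cell types with a random block for each line (correlation within a line 0.966). Benjamini-Hochberg adjustment ran over all 10510 genes, with calls at adjusted p under 0.05. The fits were tested on simulated data. Members and lists were chosen with earlier results of these data known. Named genes were all members, up to 3 called genes of a list in each direction of a comparison, and the 5 genes most like Gpx2 and Mgst1. Levels of a named gene in the other lines are given beside it. Differences between the remaining pairs of lines, used to order the members' levels, were added after the data were seen. Alternatives were no filter, quantile normalization, the mean of probe sets, an intensity trend, a replicate block, line means, leaving out each array, and leaving out the arrays labelled DAC8 and REF2. Plots and counts used Python 3.11.15, pandas 2.3.3 and matplotlib 3.10.9.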

Additional observations from a re-analysis of the deposited data

Results flagged for a closer look

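Of 30 groups of 4 arrays examined, 10 members in each of 3 labelled cell types, 2 held an array far from the other 3 by Dixon's test for 4 values at the 95% level. Chance flags about 1 in 20 groups where the 4 values are alike in kind. Each group here joined 2 lines, so that rate need not hold, and lines far apart can hide such an array. Gpx3 on A2 replicate 2 read 5.74, below the other 3 iPS arrays. Gstm1 on A1 replicate 1 read 8.93, below the other 3 iPS arrays and still above all ES and EF arrays.

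The iPS lines differed from each other in 2 members in the main fit, and in 0 to 2 on leaving out 1 array. The Gsta4 call was lost without any of 11 arrays and the Mgst3 call without either of 2. A1 exceeded A2 by 0.47 in Mgst3 and by 0.31 in Gsta4, each with both A1 arrays above both A2 arrays.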

How the results depend on the processing

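None of the called results changed direction under the alternatives run. With no filter, 1 member was called between A1 and A2 (2 in the main result), 2 in iPS against EF (1), and 890 genes in iPS against ES (509) and 969 in iPS against EF (562). Quantile normalization called 1 member between DAC8 and REF1 (0) and 1 in iPS against ES (2). The mean of probe sets and an intensity trend each called 2 members in iPS against EF, and the trend 357 genes between A1 and A2 (204). With line means 0 members were called in iPS against ES and 0 against EF, beside 259 and 292 genes. Without the arrays labelled DAC8 and REF2, 7 members and 8788 genes were called in iPS against ES, 7 and 8827 in iPS against EF, and 6 and 9099 in ES against EF (0 and 0). This last alternative had no random block for the line, so both the error and the arrays changed, and their parts cannot be told apart. With the replicate number as a block (replicate block), 1 member was called between A1 and A2, 1 in iPS against ES and 2 in iPS against EF. Same-numbered arrays were not shown to be paired: their deviations correlated at -0.08 to 0.24 over 15 pairs of lines, with 3 over 0.1. Leaving out 1 array at a time gave 0 to 2 members and 80 to 177 genes between A1 and A2, 0 to 2 members in iPS against ES, 1 to 2 in iPS against EF, and 0 to 1 members and 1192 to 2058 genes between DAC8 and REF1 (2136). The causes were not tested. Dim levels and 2 arrays per line limit what these arrays can show.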
